A study of Ditylenchus destructor and Heterodera glycines and Meloidogyne incognita with 162 samples.

Results

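The L1 peak genes of Meloidogyne incognita are the 150 genes, of 45320 in the count table, whose level at L1 stood highest above every earlier stage of embryogenesis. Counts were expressed as CPM (counts per 1000000 counts of a library). The median CPM of each stage was taken, and the score of a gene was log2 of its L1 median plus 1 over its highest earlier stage median plus 1. A score above 0 was found for 1682 genes, and the 150 highest were kept. Each L1-over-earlier difference below therefore chose the genes, and is given as a description with no test. Tests were run only among the stages before L1.

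The series holds single-embryo Smart-seq2 RNA-seq of plant-parasitic nematodes, 162 libraries in all, of which 54 are M. incognita and were used here. The embryos were of strain WHF4-1, with eggs released from infected tobacco roots, and each library was made from the poly(A) RNA of a single embryo picked by its stage. The 11 stages were the cleaving embryo (Zygote, 2-cell, 4-cell and 8-cell), the later cell stages (24-44 cell and then 64-78 cell), the embryo taking shape (Comma, 1.5-fold and, when longer, 2-fold), the Moving embryo and L1, with 5 libraries at each stage and 4 at 64-78 cell. More embryos were sampled per stage than were kept by the study, and no label says which eggs came from the same egg mass, plant or processing day, so the spread between replicates is a spread between embryos and no batch could be examined.

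M. incognita is a root-knot nematode that reproduces without males, by mitotic parthenogenesis, and its genome is polyploid, so that many genes have close copies. The embryo cleaves, gastrulates, elongates through the comma and fold stages, moves inside the eggshell, and forms the first larval stage (L1), which moults in the egg before the infective juvenile hatches. The genes that turn on at the end of nematode embryogenesis are known to include those of the cuticle, of muscle and nerve function, and of secretory glands. Whether the genes described here belong to any of these is not known from the files. None of the IDs matched a named gene in the reference at hand (0 of 45320), so genes are given by ID, position and level only, and no sequence is shown.

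The library totals ran from 2460877 to 3665016 counts in the 5 L1 embryos, and from 851576 to 11336360 counts in the 49 earlier embryos. The replicates of a stage all differed by far more than sampling noise, so each was counted as a separate sample (lowest chi-square per degree of freedom of any replicate pair, 15.8). Within the Moving stage, replicates 4 and 5 stood apart from replicates 1, 2 and 3 in the L1 peak genes, and results that rest on them are given with and without them.

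The 150 genes together held 32.0%, 12.9%, 21.8%, 23.9% and 11.4% of the counts in L1 replicates 1 to 5 (20.4% ± 8.47, SD, n = 5). The 12 genes with the highest score alone held 17.7%, 3.82%, 8.39%, 13.2% and 1.91% of the counts in the same order. Much of the spread between L1 embryos thus lay in these 12 genes. In 47 of the 49 earlier libraries, the 150 genes held 0.0154% to 0.203%. Moving replicate 4 held 5.54% (95% Wilson interval 5.52% to 5.56%), and Moving replicate 5 held 2.79% (2.78% to 2.81%). These intervals, no wider than 0.103 percentage points in any library, cover counting error only, since reads amplified by PCR without molecular identifiers are not independent molecules. The L1 embryos thus did not overlap the earlier ones in this share, the lowest L1 value being above that of Moving replicate 4. A level in a whole embryo cannot tell fewer expressing cells from less RNA per cell.

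**Figure D1:**
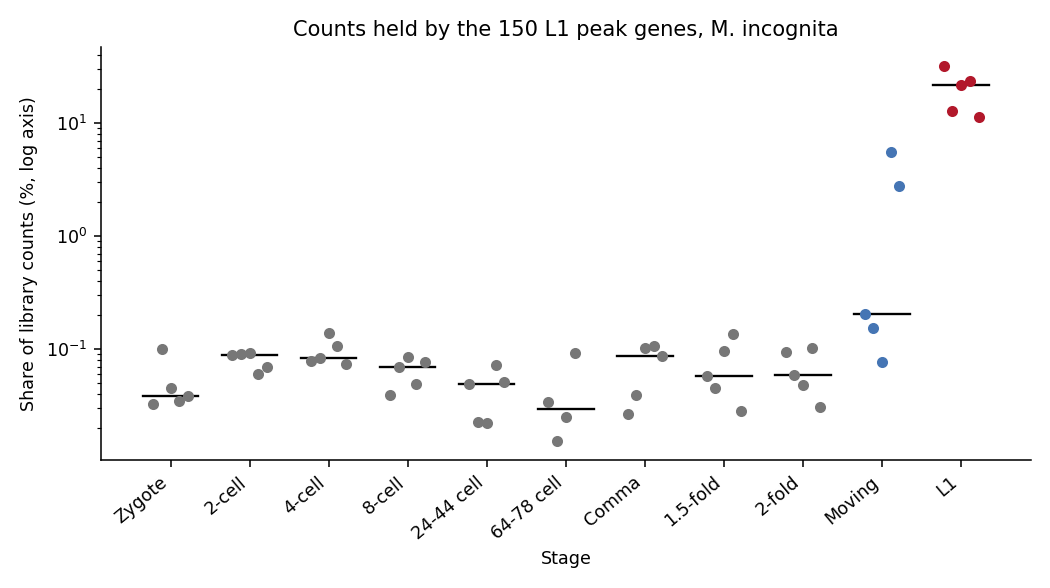
Share of each library's counts held by the 150 L1 peak genes (vertical axis, percent, log scale) at the 11 stages in developmental order, with 1 point per embryo in order of replicate and a bar at the stage median. The 5 L1 points lie between 11.4% and 32.0%, Moving replicates 4 and 5 lie at 5.54% and 2.79%, and all other points lie at or under 0.203%.

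The score ranged from 12.58 to 3.61, with a median of 4.96. The L1 medians of the genes ran from 14.2 to 25467 CPM, with a median of 234 CPM. Of the 150, 107 were at 100 CPM or more and 40 at 1000 CPM or more. At the border, Mi_26346 (score 3.64), Mi_39126 (3.63) and Mi_19710 (3.61) were the last kept, and Mi_10574 (3.61), Mi_14707 (3.60) and Mi_34513 (3.57) the nearest left out. Mi_34513 had an L1 median of 12454 CPM, and missed the list because its highest earlier stage median was already 1046 CPM. The list is thus one of a step up at L1 over all earlier stages, and not of the most abundant L1 transcripts: 49, 45, 58, 45 and 34 of the 150 most abundant genes of L1 replicates 1 to 5 were among its members.

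Of the 150 genes, 48 had every L1 library above all 49 earlier libraries, where 0.203% of all genes did. When Moving replicates 4 and 5 were left out of the earlier libraries, 99 members and 0.479% of all genes did so. Since the rule chose the genes on this contrast, the counts are a description of how cleanly the levels separated.

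The gene with the highest score, Mi_21869 (Mi_Chr_11, bases 5151501 to 5153513 of the minus strand, in the coordinates of the deposited table), was at 39839, 6764, 25467, 25782 and 4576 CPM in L1 replicates 1 to 5. In the earlier libraries, it reached 2054 CPM in Moving replicate 4 and 3167 CPM in Moving replicate 5, and the earlier stage medians ran no higher than 3.15 CPM. Every L1 embryo was above every earlier one. Mi_15559 (Mi_Chr_31, 1854626 to 1856060, minus strand) was at 40777, 7515, 21678, 26426 and 2643 CPM in L1, and at 2398 and 3207 CPM in Moving replicates 4 and 5. Here L1 replicate 5 was below Moving replicate 5, and the groups overlapped.

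Mi_15444 (Mi_Chr_31, 1264882 to 1266272, plus strand) was the highest-scoring gene whose median stayed under 1 CPM at all 10 earlier stages. Its levels in L1 replicates 1 to 5 were 5868, 2400.5, 3558, 4319 and 1579 CPM. Its highest earlier level was 128 CPM, in Moving replicate 4, so the groups did not overlap, and it had no count in 40 of the 49 earlier libraries. Mi_00221 (Mi_Chr_34, 1638675 to 1640099, plus strand) was at 32863, 5405, 15439, 25655 and 2069 CPM in L1, and at 3282 and 2175 CPM in Moving replicates 4 and 5. L1 replicate 5 again fell inside the range of the Moving embryos.

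The next 4 genes by score differed more between the L1 embryos. Mi_18812 (Mi_Chr_02) was at 10433, 1201, 3596, 7593 and 86.9 CPM in L1 replicates 1 to 5. Mi_01390 (Mi_Chr_25) was at 1238, 711, 1251, 1409 and 79.2 CPM. Mi_00226, which lies on Mi_Chr_34 as Mi_00221 does, was at 19910.4, 1893, 2232, 18494 and 10.5 CPM. In all 3 genes, replicate 5 was the lowest. Mi_27517 (Mi_Chr_01) was at 1581, 36.1, 705, 1520 and 39.3 CPM, with replicates 2 and 5 both low.

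Not every high-scoring gene followed this pattern. Mi_05742 (Mi_Chr_06, 7080789 to 7082448, minus strand) was even in L1, at 10182, 8060.1, 5329, 6628 and 6193 CPM, and stood at 6945 CPM in Moving replicate 4, inside the L1 range, and at 4171 CPM in Moving replicate 5, while Moving replicates 1, 2 and 3 had 2.68, 0.84 and 11.8 CPM. Mi_15031 (Mi_Chr_24) was at 2868, 2818, 1076, 1595 and 1722 CPM in L1 and at 455 and 395 CPM in Moving replicates 4 and 5, with no overlap. Mi_30707 and Mi_30708, neighbours on Mi_Chr_04, were at 3921, 729, 964, 4577 and 0 CPM and at 7546, 659, 2623, 7656 and 75.1 CPM in L1 replicates 1 to 5. Both were high in L1 replicates 1 and 4 and lowest in replicate 5.

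**Figure D2:**
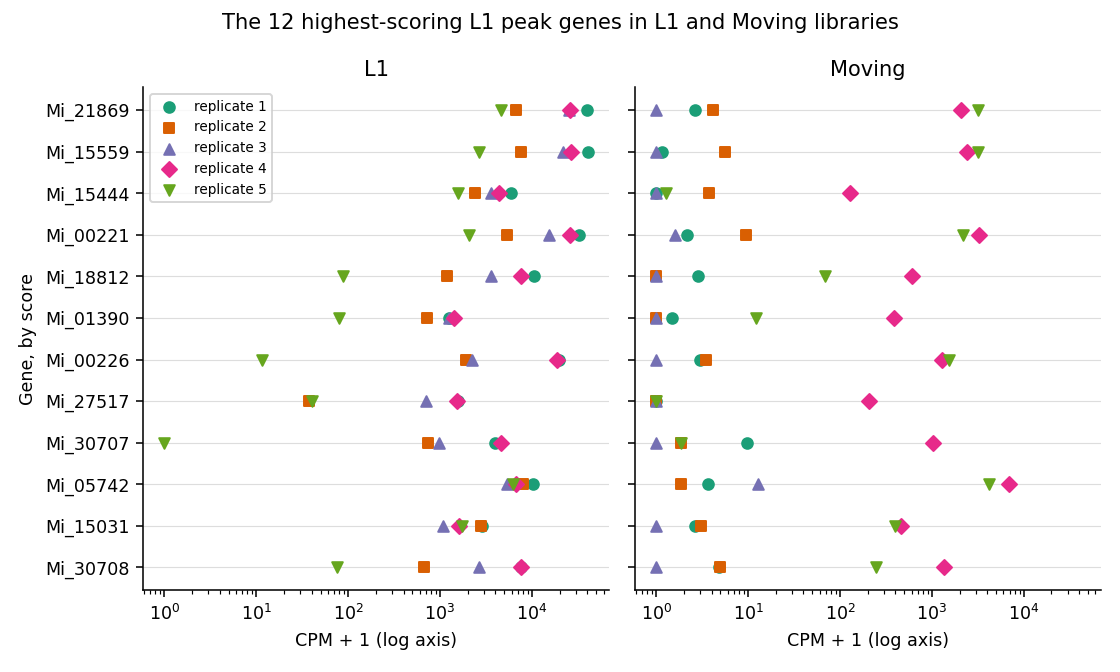
CPM plus 1 (horizontal axis, log scale) of the 12 genes with the highest score, in the 5 L1 libraries on the left and the 5 Moving libraries on the right, with 1 symbol per replicate number. Numbers do not link an L1 embryo to a Moving embryo. All 12 genes were at 10 CPM or more in Moving replicate 4 and 9 were in Moving replicate 5, and L1 replicate 5 lies to the left of the other L1 embryos in 9 of the rows.

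By median level at L1, the highest 5 genes were Mi_21869, Mi_15559, Mi_00221, Mi_40486 and Mi_05742. Mi_40486 (Mi_Chr_08, 229905 to 232941, minus strand) was at 3688, 9121, 8932, 1743 and 27729 CPM in L1 replicates 1 to 5, with replicate 5 the highest. Its score was 4.37 only, because its Moving median was 432 CPM. The Moving embryos reached 1328 CPM, and no earlier library passed the lowest L1 embryo.

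The L1 embryos therefore differed among themselves in which members they held. Over the 150 genes, the highest L1 level was a median of 9.28 times the lowest (both as CPM plus 1), and 72 genes (48.0%) spanned 10-fold or more. Among the 5843 genes with an L1 median at least that of the lowest member, the median was 5.24 times and 34.0% spanned 10-fold or more. Only 7 of the members spanned less than 2-fold, and 15 had no count in at least 1 L1 library. L1 replicate 5 was the lowest of the 5 embryos for 77 members, where it was the lowest for 14.7% of the 5843 genes. L1 replicate 3 was the highest for 58 members, against 18.8% of those genes. L1 replicate 1 was the lowest for 8 members, against 29.2% of those genes. Replicate 5 was also the highest embryo for 29 members, Mi_40486 among them, so its lower share was not a lower level of every member.

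Similarity between the L1 embryos over the 150 members, as the Pearson correlation of their log levels across genes, was highest for replicates 1 and 4 (0.88), 1 and 3 (0.86) and 3 and 4 (0.75). It was 0.70 for replicates 2 and 5, and lowest for 4 and 5 (0.23) and 1 and 5 (0.34). Over the 5843 genes, the values were 0.52, 0.58, 0.57, 0.52, 0.44 and 0.45 in the same order of pairs. Genes are not independent replicates, and the values describe these embryos only.

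The list was then built again without each L1 library in turn, and the left-out embryo was examined. In the left-out replicates 1 to 5, the genes chosen from the other 4 held 31.7%, 12.7%, 21.99%, 23.5% and 11.1% of counts. Of 150 genes, 138, 145, 140, 132 and 138 were at 1 CPM or more there, where 28.9%, 29.9%, 35.7%, 28.4% and 33.4% of all genes were. Of the same genes, 97, 87, 108, 94 and 65 were above every earlier library, where 0.927%, 1.19%, 1.36%, 1.18% and 1.18% of all genes were. The median score computed from the left-out embryo alone was 4.94, 4.93, 5.55, 4.77 and 4.29. The fewest genes above every earlier library and the lowest median score were in replicate 5. The earlier libraries were the same in the choice and in this comparison.

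Before L1, the members were low, but nearly all had some counts. The highest earlier stage median was 0 in 10 genes, under 1 CPM in 35 and at 10 CPM or more in 43. A stage median of 1 CPM or more was first reached at 2-fold or Moving by 14 genes and at an earlier stage by 101. With 5 CPM in place of 1, these were 19 and 55 genes, with 76 under it before L1, and with stage means in place of medians 3 genes were under 1 CPM before L1 and 130 reached it before 2-fold. From Zygote to Moving, 7, 46, 34, 27, 16, 36, 73, 45, 54 and 89 members had a stage median of 1 CPM or more. Over all genes, the shares at these stages were 34.4%, 42.9%, 35.8%, 45.1%, 37.5%, 48.2%, 61.04%, 48.4%, 55.1% and 51.5%. Comma was thus a high point for all genes as well. The share of members was under that of all genes up to 2-fold, and was 59.3% at Moving. A stage median at this level can rest on a few reads, and 1 member had no count in any of the 49 earlier libraries. The median member had a count in 21 of them. By stage median, the highest earlier stage was Moving for 60 genes, Comma for 26, 4-cell for 15, 1.5-fold and 2-cell for 10 each, 2-fold for 9, 8-cell for 6, 64-78 cell for 3 and Zygote for 1. For the 10 genes whose medians were all 0, no stage was highest.

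**Figure D3:**
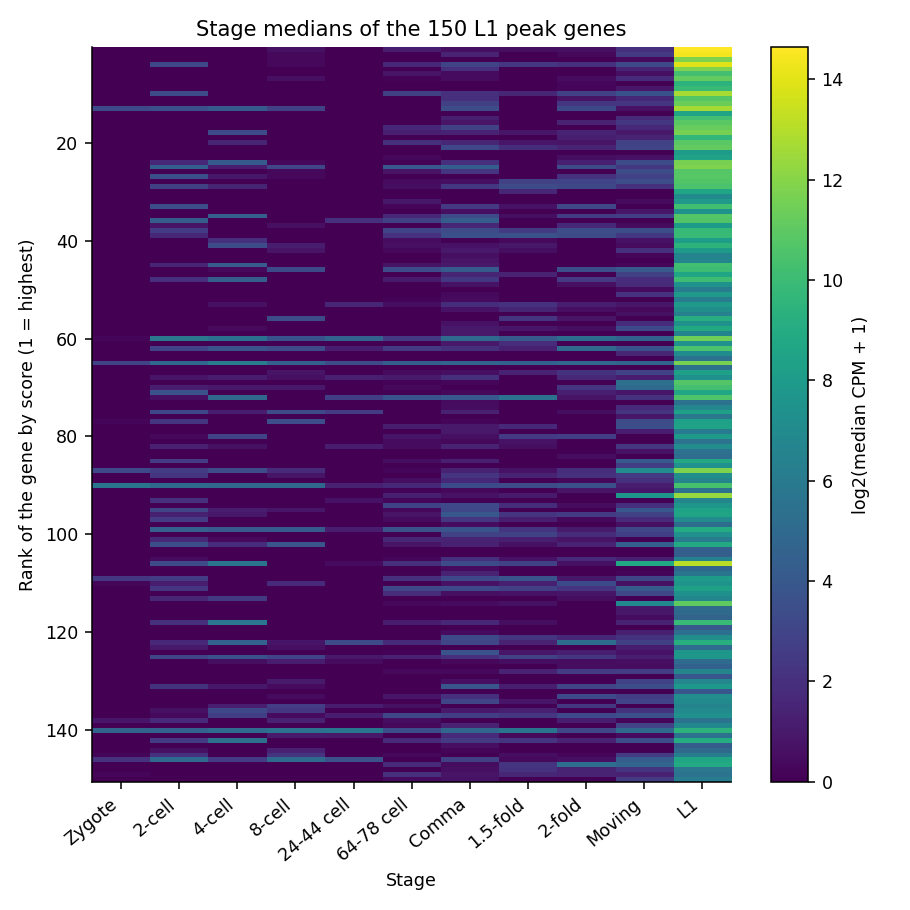
Stage medians of the 150 genes, as log2 of median CPM plus 1 (colour), with stages in developmental order from left to right and genes from the highest score at the top to the lowest at the bottom. The L1 column is bright because the rule chose it, and fainter marks at earlier stages are members with some level there. From Zygote to Moving, 7, 46, 34, 27, 16, 36, 73, 45, 54 and 89 of 150 genes had a stage median of 1 CPM or more.

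Within the Moving stage, high levels of the members were seen in 2 embryos. At 10 CPM or more, a level chosen after the values were seen, there were 23, 27, 18, 93 and 75 members in Moving replicates 1 to 5, where 21.6%, 26.1%, 20.4%, 20.2% and 30.7% of all genes reached it. Replicates 1, 2 and 3 were thus under the share of all genes, and replicates 4 and 5 were above it. Of the 150 members, 62 were at this level in both replicates 4 and 5, 31 in replicate 4 only, 13 in replicate 5 only and 44 in neither. There were 46 members at 10 CPM or more in both and under 10 CPM in replicates 1, 2 and 3. At the same time, 18 members had no count in either. In replicate 4, 28 members were at or above their own L1 median, and 6 were in replicate 5. The shares of all genes that met these joint conditions, or reached their own L1 median, were not computed. These counts thus describe the members, and do not show how far the split is particular to them. The highest of the 49 earlier libraries was Moving replicate 4 for 73 members and Moving replicate 5 for 12, against 2.03% and 4.33% of all genes with an earlier count. When the rule was applied without these 2 embryos, 138 of the 150 members were kept. The labels give all 5 embryos the same stage name.

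**Figure D4:**
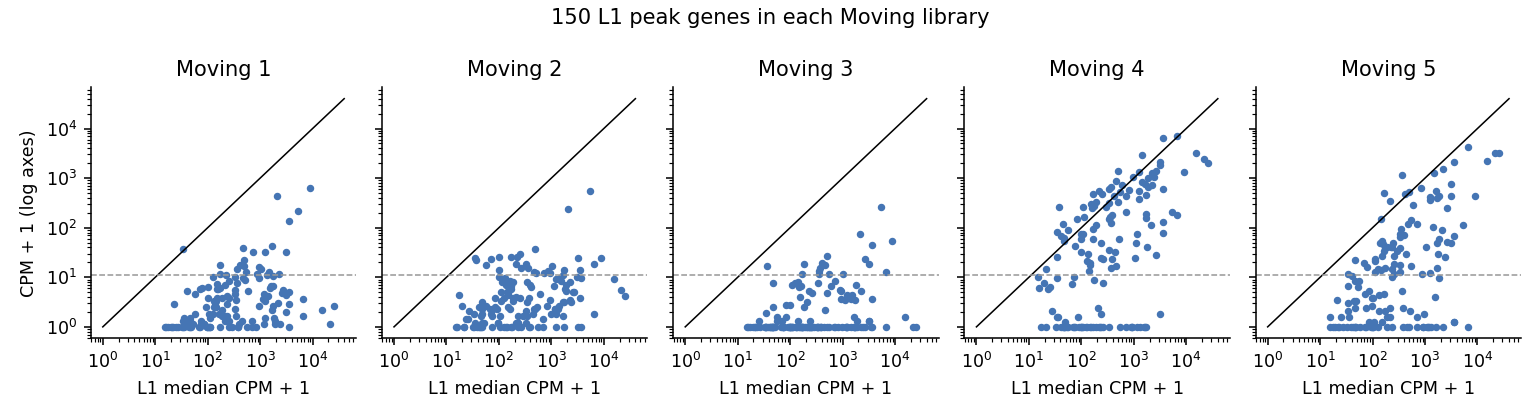
CPM plus 1 of the 150 genes in each of the 5 Moving libraries (vertical axis) against their L1 median CPM plus 1 (horizontal axis), both on log scales, with 1 point per gene. The solid line marks equal levels and the dashed line 10 CPM, and 93 and 75 genes reach that level in Moving replicates 4 and 5, against 23, 27 and 18 in replicates 1, 2 and 3.

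Whether the members differed between earlier stages was tested with edgeR's quasi-likelihood test on the 49 libraries before L1, with Benjamini-Hochberg adjustment over all genes tested and a threshold of 0.05. L1 values had no part in these tests. The earlier values did have a part in the choice of the genes, because the highest earlier stage median is the lower term of the score. Members thus had low medians at every earlier stage relative to L1, which leaves little room for a fall, and the counts of members called are a description and no support independent of the rule. The share of all genes called is given beside each count. In simulated data, the contrasts with cleavage called more unchanged genes than the threshold allows, so their counts and shares may be too high.

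In late embryos (2-fold and Moving, n = 10) against cleavage embryos (Zygote, 2-cell, 4-cell and 8-cell, n = 20), 71 of the 150 members were higher, where 31.6% of 32331 genes tested were higher. Only 1 member was lower, where 7.74% of genes were. A further 51 members did not pass, and 27 could not be tested, for too few counts or a fit that failed. Of the 123 members tested, 57.7% were higher. The median log2 fold change was 3.30 over the 123 members tested and 0.76 over all genes tested. Without Moving replicates 4 and 5, an alternative chosen after the data were seen, 40 members (26.7%) were higher, each of them among the 71, where 30.5% of 33043 genes tested were higher and 5.5% lower. The 26.7% is of all 150 members, untested ones included, while the 30.5% is of genes tested, so these 2 shares are not on the same base. Of the 124 members tested in this fit, 40 were called higher. The median log2 fold change was 1.64 over those tested members and 0.83 over all genes tested.

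The largest rises were in Mi_30707, Mi_01390 and Mi_19308. Mi_30707 was at 8.72, 0.84, 0, 1028 and 0.84 CPM in Moving replicates 1 to 5 and at 2.89, 0, 0, 8.99 and 0.19 CPM in 2-fold replicates 1 to 5, against a range of 0 to 1.42 CPM and a median of 0 in the 20 cleavage embryos (log2 fold change 9.11, SE 1.30, edgeR adjusted p = 2.28e-06). A single Moving embryo held nearly all of this level, and without Moving replicates 4 and 5 the fold change was 6.34 (adjusted p = 0.000142). The cleavage embryos held 4 counts of Mi_30707 in all, so the size of its fitted change depends on the prior count. Mi_01390 ranged from 0 to 382 CPM with a median of 0 in late embryos, against 0 to 0.35 CPM and a median of 0 in cleavage embryos (log2 fold change 9.08, SE 1.42, edgeR adjusted p = 5.65e-06). The 382 CPM was in Moving replicate 4, with 11.2 CPM in Moving replicate 5, 15.3 CPM in 2-fold replicate 3 and at most 0.50 CPM in the other late embryos. The 20 cleavage embryos held 1 count of Mi_01390 in all, so the size of its fitted change depends on the prior count. It was 7.67 to 24.4 over the alternatives other than leaving out a library or a replicate number. Without Moving replicates 4 and 5 the gene was not tested. Mi_19308 (Mi_Chr_02, 3479587 to 3481532, minus strand) ranged from 0 to 716 CPM with a median of 5.26 CPM in late embryos, against 0 to 6.73 CPM and a median of 0 in cleavage embryos (log2 fold change 8.86, SE 1.24, edgeR adjusted p = 5.50e-07). The 716 CPM was in Moving replicate 4, and no other late embryo was above 28.4 CPM. The fold change was 6.54 without Moving replicate 4, 6.89 without Moving replicates 4 and 5 (adjusted p = 1.94e-05), and 5.61 to 10.23 over the fits that left out a library or a replicate number. The member that fell, Mi_41011, was at 0.21 CPM at most in late embryos, against 10.3 CPM at most and a median of 0 in cleavage embryos (log2 fold change -3.59, edgeR adjusted p = 0.0408), and the call was lost in 12 of 14 fits that left out a library or a replicate number.

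In embryos at the start of morphogenesis (Comma and 1.5-fold, n = 10) against cleavage embryos (n = 20), 33 of the 150 members were higher, where 25.3% of 32195 genes tested were higher, and 3 were lower, where 4.4% of genes were. The share of members called higher was 22% of all 150, and 27.5% of the 120 members tested, which is the base to set beside the 25.3%. Another 84 members did not pass and 30 were not tested. The median log2 fold change was 1.05 over the 120 members tested and 0.56 over all genes tested.

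Mi_12834 (Mi_Chr_03, 4072659 to 4074828, plus strand) was at 0, 6.47, 15.7, 28.2 and 1.70 CPM in Comma replicates 1 to 5 and at 14.6, 6.09, 27.3, 0.66 and 0 CPM in 1.5-fold replicates 1 to 5, against 0 to 2.35 CPM and a median of 0 in cleavage embryos (log2 fold change 7.01, SE 1.18, edgeR adjusted p = 2.25e-05). Mi_40449 (Mi_Chr_08, 110579 to 110982, plus strand) had a count in all 10 morphogenesis embryos, from 0.66 to 20.8 CPM, against 0 to 0.35 CPM in cleavage embryos (log2 fold change 6.90, SE 1.03, edgeR adjusted p = 3.60e-06), so the groups did not overlap. The cleavage embryos held 3 counts of Mi_12834 and 2 of Mi_40449 in all, so the sizes of these fitted changes depend on the prior count. Mi_19308 was also among the 3 largest rises here (log2 fold change 6.89, SE 1.17, edgeR adjusted p = 1.99e-05). At L1, Mi_12834 reached a median of 169 CPM, Mi_40449 of 151 CPM and Mi_19308 of 2242 CPM, while in no morphogenesis embryo did these genes reach 100 CPM.

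The 3 members that fell between cleavage and morphogenesis were detected in the early embryo, in some Moving embryos and at L1. Mi_24574 (Mi_Chr_37, 32183 to 34705, minus strand) was at 0 to 9.87 CPM with a median of 0.58 CPM in morphogenesis embryos, against 0 to 136 CPM with a median of 25.02 CPM in cleavage embryos (log2 fold change -3.65, SE 1.02, edgeR adjusted p = 0.00454). Its levels were 16.6, 5.47, 18.1, 432 and 476 CPM in Moving replicates 1 to 5, and 258, 513, 456, 411 and 211 CPM in L1. It was also called higher in Moving against 2-fold embryos (edgeR adjusted p = 0.0355), with the high Moving replicates 4 and 5 included. Without those embryos only 2 of the 11 members called in that contrast remained, and the value of Mi_24574 there is not given. Mi_16809 was at 0.55 CPM at most in morphogenesis embryos, against a median of 1.82 CPM and a highest value of 30.9 CPM in cleavage embryos (log2 fold change -4.77, SE 1.44, edgeR adjusted p = 0.00867). Mi_09020 had no count in the 10 morphogenesis embryos, against 72 counts and at most 7.47 CPM in the 20 cleavage embryos, and its fitted change depends on the prior count (edgeR adjusted p = 0.0319, between 0.0288 and 0.285 over the alternatives). Cleavage levels of these 3 genes overlapped those of morphogenesis embryos, all having embryos at 0 in both groups.

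In the last step before L1, Moving embryos (n = 5) against 2-fold embryos (n = 5), 11 of the 150 members were higher, where 0.261% of 32573 genes tested were higher. By edgeR, 0 members were lower, where 0.181% of genes were, and 0 were lower at an unadjusted p under 0.05 or by DESeq2. The median log2 fold change was 3.41 over the 125 members tested and 0.11 over all genes tested, with 114 members that did not pass and 25 not tested. Without Moving replicates 4 and 5, only 2 of the 11 remained called, where 0.122% of 33533 genes tested were higher and 0.0149% lower.

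Mi_38644 (Mi_Chr_29, 1158910 to 1160694, minus strand) was high in every Moving embryo, at 428, 241, 72.7, 113 and 87.1 CPM in replicates 1 to 5, against 0, 0, 0.45, 0 and 0 CPM in the 2-fold embryos (log2 fold change 11.51, SE 2.06, edgeR adjusted p = 0.00127). The groups did not overlap, and without Moving replicates 4 and 5 the change was 11.97 (adjusted p = 0.00387). At L1 it was even, at 2242, 2061, 2616, 2116 and 1894 CPM. Mi_34516, named after its values were seen because it had the same form, was at 216, 544, 264, 209.7 and 114 CPM in Moving replicates 1 to 5, against a median of 0 in 2-fold embryos (log2 fold change 9.63, edgeR adjusted p = 0.00127).

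Other calls of this contrast rested on the 2 Moving embryos that stood apart. Mi_15559 was at 0.17, 4.63, 0, 2398 and 3207 CPM in Moving replicates 1 to 5, against 1.44, 0.27, 0, 0 and 0.76 CPM in 2-fold replicates 1 to 5 (log2 fold change 11.27, SE 2.02, edgeR adjusted p = 0.00155), and without Moving replicates 4 and 5 the change was 2.33 and did not pass (adjusted p = 1). Mi_34347 was at 5.20, 4.84, 0, 469 and 495 CPM in the Moving embryos, against no count in the 2-fold embryos (n = 5), which is at least 915-fold higher on a floor of 3 counts over the group. Its call (edgeR adjusted p = 0.0464) was lost in 13 of 15 fits that left out a library or a replicate number, and the p was 0.773 without Moving replicates 4 and 5.

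**Figure D5:**
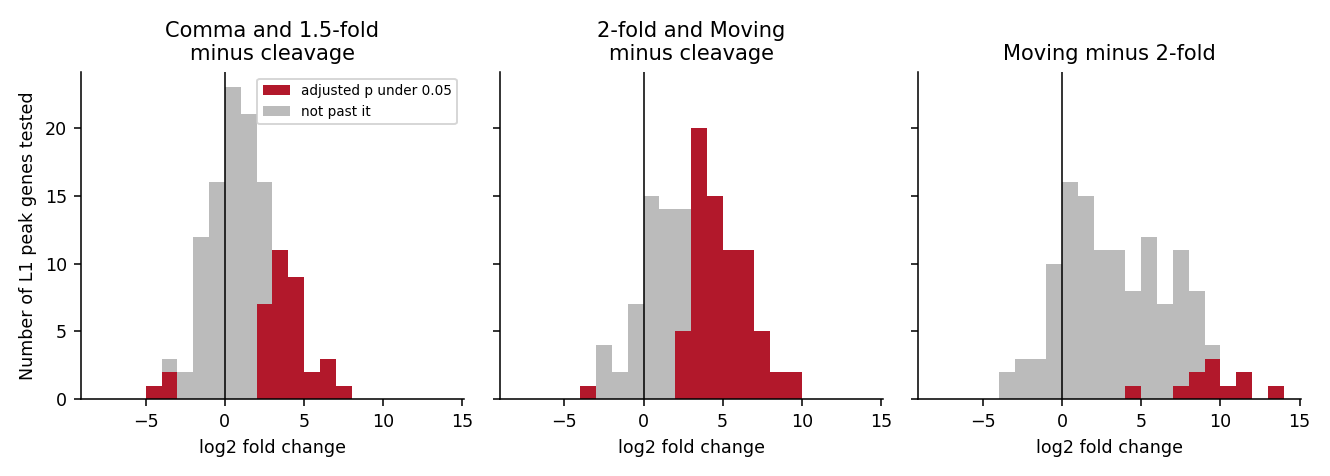
Number of L1 peak genes (vertical axis) by edgeR log2 fold change in 1-unit bins (horizontal axis), for the 120, 123 and 125 members tested in the 3 contrasts among stages before L1, with genes past an adjusted p of 0.05 in red. Members lie mostly to the right of 0 in each contrast, with 86 of 120, 109 of 123 and 107 of 125 above 0. The median over all genes tested was also above 0, at 0.56, 0.76 and 0.11 in the same order. The rule also left members little room for a fall. Past the threshold, 33, 71 and 11 were higher and 3, 1 and 0 lower, in the same order.

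Members lay on 33 of the 77 sequences in the table, at 3.31 per 1000 genes overall. The most were on Mi_Chr_01, with 12 members at 4.00 per 1000 genes. Their genomic spans, introns included, had a median of 1647 bases (256 to 17402), against 1987 bases for all genes and 3099 bases for the 5843 genes with an L1 median at least that of the lowest member. Some of the highest-scoring genes were of nearly equal span: Mi_15559, Mi_15444, Mi_00221, Mi_18812 and Mi_00226 all measured between 1391 and 1435 bases. That window was drawn around these 5 genes after their values were seen, so they lie in it by construction. It held 8 members (5.33%), against 1.21% of all genes, and the shares therefore cannot show an excess. Of the 8, 6 had L1 medians of 1000 CPM or more, with all 5 genes that set the window among them. If genes of this window are close copies of each other, reads could be shared between them in counting. This was not tested, as no sequence of these genes was at hand.

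Runs of members, with at most 1 other gene between neighbours, numbered 11 and held 23 of the 150 genes. The longest was of 3 genes on Mi_Chr_01, Mi_26331 to Mi_26333. In L1 replicates 1 to 5, Mi_26331 was at 934, 879.6, 2081, 281 and 1178 CPM, Mi_26332 at 88.1, 542, 1149, 0.30 and 1598 CPM, and Mi_26333 at 1509, 688, 4097, 747 and 933 CPM. L1 replicate 3 was the highest of the 5 for the outer genes, and replicate 4 the lowest for Mi_26331 and Mi_26332. In contrast with the top-scoring genes, Mi_26331 and Mi_26333 had no count in Moving replicates 4 and 5.

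Of 9 pairs of directly neighbouring members, 7 were head-to-head (on opposite strands with their starts facing), 2 were on the same strand and 0 were tail-to-tail, where 21.7% of 45243 neighbouring gene pairs were head-to-head. Mi_27516 and Mi_27517 on Mi_Chr_01 were 633 bases apart, and Mi_30707 and Mi_30708 on Mi_Chr_04 were 632 bases apart. The first pair was high and low in the same L1 embryos, with Mi_27516 at 6052, 677, 1879, 7503 and 1.28 CPM and Mi_27517 at the levels given above, both highest in replicates 1 and 4. In Moving replicate 4, the 4 genes of these pairs were at 208 to 1366 CPM. Whether counting used strand is not given in the sources used here, so reads from transcripts that overlap a neighbour cannot be told apart from its own. Of the 278 non-member genes next to a member, 15.1% had a score above 0, against 3.39% of all non-member genes.

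The same rule, applied to the tables of the other species with every column as deposited, gave lists of 150 genes with lower or similar scores. The highest, median and lowest scores were 12.58, 4.96 and 3.61 in M. incognita, 6.19, 2.55 and 1.89 in Ditylenchus destructor and 12.45, 4.56 and 3.08 in Heterodera glycines. The L1 share of counts was 11.4% to 32.0% in M. incognita, against 11.3% to 14.3% in D. destructor and 15.1% to 26.7% in H. glycines. The highest earlier library was a Moving embryo in all 3 tables, at 5.54% in M. incognita, 5.43% in D. destructor and 9.74% in H. glycines. The tables held 45320, 15798 and 18219 genes in the same order of species, so 150 genes were a smaller part of the M. incognita table. The 3 tables were not normalized to each other and no test was run between them.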

How the data were processed

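The deposited values are raw read counts of each gene in each embryo, whole numbers that the authors did not normalize. Read trimming was by fastp (version 0.20.1, per the submitters' notes), alignment by HISAT2 to the WHF4-1 assembly and counting by HTSeq. How HTSeq treated strand and reads with several matches is not given in the sources used here, and either could move counts between overlapping genes or close copies. All 54 M. incognita columns were used. The members and the lists were chosen with earlier results of these data known.

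Counts were turned into CPM of the column total, and stage medians gave the score with a pseudocount of 1. Stages before L1 were tested with edgeR (4.0.16, R 4.3.3). The 49 libraries entered a model with a mean per stage, TMM scaling, filterByExpr by stage and the quasi-likelihood test, with Benjamini-Hochberg adjustment. Each SE is the absolute log2 fold change over the square root of the test's F statistic. It is not an error estimated by the model. Genes whose fit failed (log2 fold change over 1 and a standard error over 100) were left out before adjustment, a step added after the data were seen. These were 242 genes in the late contrast, 378 in the morphogenesis contrast and 0 in Moving against 2-fold, with 2, 5 and 0 members among them. Tested on simulated data, the test recovered large changes better than small ones. In the contrasts with cleavage, more unchanged genes were called than the threshold allows. Calls near the threshold are therefore uncertain, and the counts of genes and members called in those contrasts may be too high.

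Alternatives were DESeq2 (version 1.42.0), RLE scaling, all genes with a count, a block for the replicate number, only the stages compared, libraries thinned to the smallest total, other pseudocounts and summaries, and the omission of replicates. Leaving out Moving replicates 4 and 5 together, and TPM from the genomic span, were added after the data were seen. Named genes were the 12 with the highest score, the 3 on each side of the border, the 3 largest rises and falls past the threshold in each contrast, the 5 highest at L1, the genes of the 2 longest runs, and the 3 highest scores in each class of first appearance. Python (version 3.11.15), numpy (version 2.4.6) and pandas (version 2.3.3) were used.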

Additional observations from a re-analysis of the deposited data

Results flagged for a closer look

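Dixon's ratio was computed for the share of counts held by the members at each stage and for the L1 levels of the 30 named members, 41 groups in all, of which 3 had an embryo apart from the others. Chance gives about 1 in 20. The share of counts held by the L1 peak genes in Zygote replicate 2 was 0.101%, above the other Zygote embryos, and still far under any L1 value. Mi_26333 was at 4097 CPM in L1 replicate 3, against 688 to 1509 CPM in the other L1 embryos. Mi_40486 was at 27729 CPM in L1 replicate 5, against 1743 to 9121 CPM in the others, in the embryo with the lowest share of members overall.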

How the results depend on the processing

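Of the 150 members, 100 to 150 were kept under other pseudocounts, summaries, scalings, filters, thinning and TPM, 109 to 140 when a replicate number or an L1 library was left out, and 138 without Moving replicates 4 and 5. The median L1 share of counts (21.8%) was 17.9% to 31.9% when a replicate number or an L1 library was left out. Members in runs numbered 17 when no other gene was allowed between members, and 37 when a run was defined as members within 20000 bases. In late against cleavage embryos, libraries thinned to the smallest total gave 6610 genes and 44 members higher, RLE scaling gave 1630 genes lower and a median change over all genes of 1.24 in place of 0.76, and 40 members were higher without Moving replicates 4 and 5. In morphogenesis against cleavage embryos, a fit of the stages compared only gave 5421 genes and 18 members higher, and 894 to 1372 genes were lower when a replicate was left out. Moving against 2-fold was the contrast whose counts moved most. Its 85 genes and 11 members higher and 59 genes lower became 133 and 16 higher and 157 lower with thinned libraries, 322 and 8 higher and 272 lower with these stages only, 259 and 21 higher and 267 lower with DESeq2, 41 and 2 higher and 5 lower without Moving replicates 4 and 5, and 34 to 75 genes and 3 to 11 members higher and 10 to 63 genes lower when a replicate was left out, and 18 members were higher with no filter. None of the 12 genes named for a change in a contrast reversed in any alternative that gave it a value, and Mi_34516 was not among them. Replicate numbers did not pair the embryos: same-numbered libraries of different stages had a mean correlation of deviations of -0.00202 over 216 pairs, and 6 of 49 libraries correlated best with their own number. With the replicate block, 65, 33 and 7 members were higher in the late, morphogenesis and Moving contrasts. Genes with a few counts before L1 are limited by depth, and their absence there was not shown.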

Other observations

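Among the genes that first reached a stage median of 1 CPM at 2-fold or Moving, Mi_38483 (Mi_Chr_29) was at 1059.8, 317, 945, 822 and 203 CPM in L1 replicates 1 to 5, and at 565 and 619 CPM in Moving replicates 4 and 5, while Moving replicates 1, 2 and 3 held 0, 1.68 and 0 CPM. Mi_09020 went the other way in the Moving stage. Its L1 levels were 33.6, 5.24, 39.8, 11.2 and 85.9 CPM in replicates 1 to 5, and it was at 36.2 and 23.8 CPM in Moving replicates 1 and 2 and at 0.55 and 1.12 CPM in Moving replicates 4 and 5. Mi_26333 was at 15.3, 10.9 and 4.22 CPM in Moving replicates 1, 2 and 3 and had no count in Moving replicates 4 and 5.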
